A study of Mus musculus with 21 samples.

Results

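Golgi glycosyltransferases and sulfotransferases were followed in mouse embryonic stem cells of the E14 line, cultured pluripotent cells that come from an early embryo, after rapid removal of a ribosomal or ribosome-associated protein. The members were all genes whose symbol begins with B3gal, B3gnt, B3gat, B4gal, Galnt, Mgat, St3gal, St6gal, Fut and a digit, Chst, Chsy, Chpf, Ndst, Hs2st, Hs3st, Hs6st, Ext1, Ext2, Extl, Man1a, Man2a or Xylt. This rule found 95 of the 13253 identifiers listed in any of the 3 tables, and 81 of the 95 stood in all 3. The tables held 84 members of 12274 genes for RPLP1, 85 of 12353 for RPLP0 and 93 of 12905 for RACK1. Of those missing from a table, 8 were listed for RACK1 only and 1, Mgat4c, for RPLP0 only. The names stand for enzyme families, and no value in the tables bears on where a protein sits in the cell. A few members, such as B3galnt2, are known to work in the endoplasmic reticulum rather than the Golgi.

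Glycans are built step by step along the secretory pathway. Enzymes anchored in the Golgi membrane trim the mannose-rich N-glycans that arrive from the endoplasmic reticulum, branch them, and add galactose, sialic acid and fucose; other enzymes start O-linked chains, or build the long heparan sulfate and chondroitin sulfate chains of proteoglycans, which sulfotransferases then decorate. In mouse embryonic stem cells, heparan sulfate is known to help fibroblast growth factors reach their receptors, and the Lewis X glycan made by the fucosyltransferase Fut9 is the surface marker SSEA-1. Of the removed proteins, RPLP1 and RPLP0 form part of the ribosomal stalk, the docking place of translation factors on the large subunit, and RACK1 is a signalling scaffold bound to the small subunit.

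The 3 lines carried RPLP1, RPLP0 or RACK1 fused to an auxin-inducible degron (AID), each together with RPS26-Tir1, the plant receptor that lets auxin trigger degradation. Cells were given auxin (IAA) or the solvent DMSO for 8 h. Each line had 3 IAA and 3 DMSO samples of polyadenylated RNA and 1 ribosome footprint sample that joined all replicates of both treatments. No line lacked a degron, so an effect of IAA itself and an effect of removal cannot be told apart. The labels do not say whether replicates were separate cultures or whether a line is a single clone. The files held the authors' own comparisons, that is, a log2 change (IAA over DMSO) and a false discovery rate (FDR) for mRNA and for footprints, and no value per sample; the depth is unknown. Headers speak of change after removal without naming a numerator, so a positive change was read as higher after IAA. A gene is called here where the authors' FDR was below 0.05. The error given after a change (±) is the standard error that the change and its FDR imply; how footprint FDRs were obtained from 1 joined sample is not stated in these sources. All 8 embryonic stem cell markers looked for, Pou5f1 and Nanog among them, were in each table, as were 4 of 6 fibroblast markers, without Col3a1 and Twist2; the tables give no levels. Removal acts on the protein, so the mRNA of the tagged gene is no check of it.

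After removal of RPLP1, the enzymes that build glycans were lower almost throughout. In mRNA, 76 of 84 members lay below 0 in the authors' deposited table, against 51.0% of all genes, and their median log2 change was -0.28, against -0.01. The mRNA of 16 members was called, all lower, where 8.59% of all genes were called lower. In footprints, 74 of 84 members were below 0, against 51.5% of all genes, with a median of -0.21, against -0.01. Footprints of 9 members were called, all lower, beside a background of 4.85%. Together 23 members were called lower in at least 1 of the assays, a count for which no share over all genes was computed. In both assays 68 of 84 lay below 0, against 37.0% of all genes. In the same RPLP1 table, the 4 listed fibroblast markers were below 0 in both assays, between -1.11 and -0.15 in mRNA with none called, and Thy1 was called in footprints, at -0.60 (FDR 0.0226, the authors' value); the 8 embryonic stem cell markers lay between -0.06 and 0.24 in mRNA, with Zfp42 called higher (FDR 0.0021). Whether a shift between cell states or types has a part in the members' values was not tested. In bulk samples, fewer cells of a type and less RNA per cell cannot be told apart. Counts and medians describe the list; a list of genes chosen by name with earlier results known was given no test.

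The members' changes carried larger errors than those of a typical gene, with a median implied standard error of 0.143 against 0.115 in RPLP1 mRNA and 0.151 against 0.0875 in footprints. Of the 84 members in RPLP1, 28 had an implied standard error of the mRNA change at or below the median of all genes. In the RPLP1 mRNA these 28 had a median of -0.19, with 26 below 0 and 10 called lower, whereas the 6137 genes of that precision had a median of 0.03, with 43.8% below 0 and 10.7% called lower. The other 56 members had a median of -0.35, against -0.07 for the 6137 less precisely measured genes. For footprints the 16 members at or below the median error had a median of -0.14, against 0.02 for all genes of that precision. The other 68 had -0.21, against -0.06. Of those 16 members 1 was called lower, or 6.25%, against 4.32% of genes of that precision. Among the other 68 there were 8, or 11.8%, against 5.38%.

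Removal of RPLP0 gave mRNA calls among members in both directions, with shares called near those of all genes. The members called made up 11.8% in mRNA and 2.35% in footprints. In the authors' deposited RPLP0 table, the mRNA of 10 members was called, beside 9.95% of all genes; 5 were lower, beside 4.9%, and 5 were higher, beside 5.05%. Footprints of 2 members were called, both higher, beside 2.46% of genes called in all, 1.04% called lower and 1.42% called higher. Medians were -0.04 in mRNA and 0.04 in footprints, against 0.00 and 0.00 over all genes. Of the 8 embryonic stem cell markers in the RPLP0 table, Tfcp2l1 and Esrrb were called lower in mRNA, at -0.42 (FDR 2.32e-07) and -0.14 (FDR 0.0262), and of the 4 fibroblast markers Col1a1 was called higher, at 1.43 (FDR 0.032, the authors' values). The mRNA of the 8 lay between -0.42 and 0.02 and that of the 4 between -1.02 and 1.43; their part in the members' values was not tested. Removal of RACK1 gave no call among the 93 members by the authors' FDR, in mRNA (background 0.48%) or in footprints (background 0.031%). At an unadjusted p below 0.05, 15 members passed in the RACK1 mRNA, against 10.6% of all genes, and 14 in the footprints, against 8.29%. In RACK1, 59 of 93 members were below 0 in mRNA, against 49.9% of all genes, and 69 of 93 in footprints, against 54.9%, with medians of -0.09 and -0.08, against 0.00 and -0.01.

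**Figure D1:**
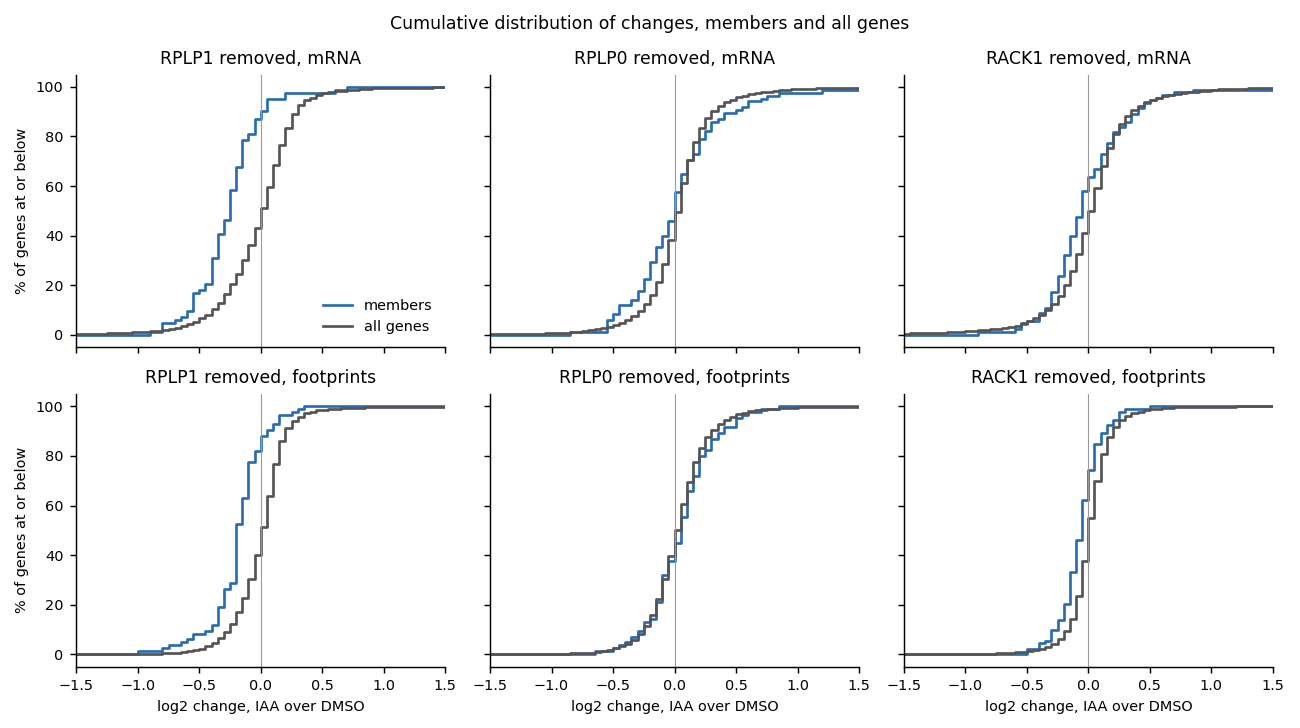
Cumulative distribution of the authors' log2 changes, with the percentage of genes at or below each change on the vertical axis, for the members (blue) and for all genes of the table (grey), by line and assay. The blue curves lie left of the grey ones over most of the range in both RPLP1 panels, where the member medians were -0.28 in mRNA and -0.21 in footprints. In the tails they cross, with 0% of members against 0.994% of all genes at or below -1 in RPLP1 mRNA. At 0 the blue curves also lie left in the RACK1 panels. There 63.4% of members against 49.9% of all genes were at or below 0 in mRNA, and 74.2% against 54.9% in footprints. In RPLP0 mRNA the curves cross, with 35.3% of members against 21.2% of all genes at or below -0.15 and 72.9% against 77.8% at or below 0.15.

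**Figure D2:**
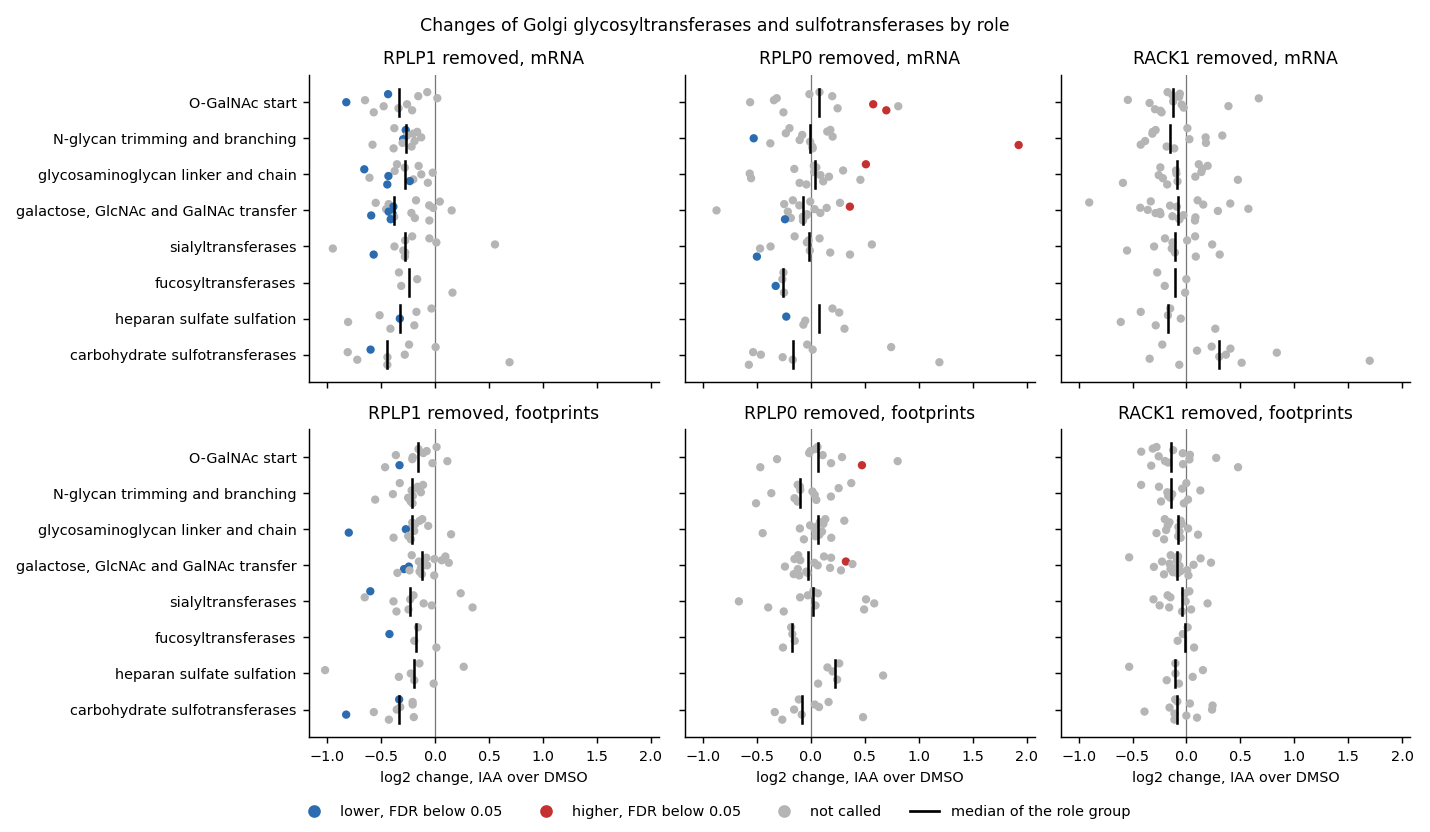
Log2 change of every member after IAA over DMSO (horizontal axis), arranged by role, line and assay; blue and red points are members called lower and higher at the authors' FDR below 0.05, grey points are not called, and black bars are role medians. All 8 role medians are below 0 in both RPLP1 panels, while the RPLP0 mRNA panel holds called points on both sides and the RPLP0 footprint panel holds 2, both higher.

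The Galnt enzymes start mucin-type O-glycans by placing GalNAc on serine or threonine. After removal of RPLP1, 10 of 11 were below 0 in mRNA and 9 of 11 in footprints, with medians of -0.34 and -0.15. Galnt2, a broadly acting starter enzyme, fell in mRNA by 0.82 ± 0.15 on the log2 scale (FDR 3.14e-05, the authors' deposited table), and Galnt10, which prefers peptides that already carry GalNAc, fell by 0.44 ± 0.13 (FDR 0.0123). Galnt7, a second enzyme that acts on GalNAc-bearing peptides, was called in footprints only, at -0.33 ± 0.11 (FDR 0.0392 in the authors' deposited table), with an mRNA change of -0.21 ± 0.12. After removal of RPLP0, Galnt2 mRNA rose by 0.58 ± 0.12 (FDR 4.52e-05), while its footprints, at -0.31 ± 0.26, were not called. Galnt6, which glycosylates fibronectin, rose in both assays of the RPLP0 table, by 0.70 ± 0.12 in mRNA (FDR 1.85e-06) and 0.47 ± 0.13 in footprints (FDR 0.018, the authors' values). Galnt7 footprints stood just outside the threshold there, at -0.47 ± 0.15 (FDR 0.0508 in the authors' deposited table). In RACK1, 12 of 14 Galnt genes were below 0 in mRNA and none was called.

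The Man1a, Man2a and Mgat enzymes trim N-glycans to a core and then set the GlcNAc branches. All 12 in the RPLP1 table were below 0 in mRNA and in footprints, with medians of -0.27 and -0.21. The mannosidase Man1a2 fell in RPLP1 mRNA by 0.27 ± 0.09 (FDR 0.0215, the authors' deposited table). Mgat3, which adds the bisecting GlcNAc that stops further branching, fell in mRNA in both stalk lines, by 0.30 ± 0.11 after removal of RPLP1 (FDR 0.0471) and by 0.53 ± 0.14 after removal of RPLP0 (FDR 0.00301). Mgat1 and Mgat2, which set the initial antennae, were at -0.26 ± 0.14 and -0.13 ± 0.08 in RPLP1 mRNA and were not called. Mgat4e stood apart in the RPLP0 table with an mRNA change of 1.93 ± 0.68 (FDR 0.0483), a wide error, and a footprint change of 0.05 ± 0.31. No member of this group was called in the footprints of any line by the authors' FDR; at an unadjusted p below 0.05 there were 4 of 12 in RPLP1, 2 of 13 in RPLP0 and 3 of 12 in RACK1, against 26.0%, 20.7% and 8.29% of all genes.

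The B4galt, B4galnt and B3gnt enzymes extend branches with galactose, GalNAc and GlcNAc. This role held 5 of the 16 mRNA calls after removal of RPLP1, among 17 genes of which 15 were below 0. The 5 were 29.4% of the role, beside 8.59% of all genes called lower. B4galt1, the main enzyme that puts galactose on GlcNAc to form LacNAc, fell in both assays of the authors' deposited RPLP1 table, by 0.39 ± 0.10 in mRNA (FDR 0.00276) and 0.29 ± 0.09 in footprints (FDR 0.037). B4galnt3, which places GalNAc on GlcNAc to form LacdiNAc, also fell in both, by 0.43 ± 0.11 (FDR 0.00231) and 0.24 ± 0.08 (FDR 0.0472). These were the only members called in both assays of that line. B4galt2 fell by 0.59 ± 0.20 in mRNA (FDR 0.03), and its footprints were at -0.24 ± 0.37. B4galt5, a lactosylceramide synthase of the glycosphingolipid pathway, fell in mRNA after removal of either stalk protein, by 0.41 ± 0.11 for RPLP1 (FDR 0.00624) and 0.24 ± 0.08 for RPLP0 (FDR 0.0455). Its close relative B4galt6 stood at -0.05 ± 0.07 and -0.07 ± 0.06 and was not called. B3gnt7, which extends keratan sulfate and LacNAc chains, had opposite calls in the authors' deposited tables: its mRNA fell by 0.39 ± 0.10 after removal of RPLP1 (FDR 0.00215) and rose by 0.36 ± 0.07 after removal of RPLP0 (FDR 8.46e-06). Its footprints rose by 0.33 ± 0.10 in RPLP0 (FDR 0.0394) and were at -0.15 ± 0.07 in RPLP1, not called.

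Sialyltransferases and fucosyltransferases cap the chains. Of 11 sialyltransferases in RPLP1, 9 were below 0 in each assay. St6galnac4 fell in mRNA by 0.57 ± 0.16 (FDR 0.00915 in the authors' deposited table), with footprints at -0.25 ± 0.19. St3gal2, which sialylates galactose on O-glycans and gangliosides, was called in footprints, at -0.60 ± 0.19 (FDR 0.0287), against -0.21 ± 0.12 in mRNA. In RPLP0 the mRNA of St6galnac6, a ganglioside sialyltransferase, fell by 0.50 ± 0.17 (FDR 0.0394, the authors' value). The 4 fucosyltransferases listed were Fut8, Fut9, Fut10 and Fut11. Fut8, which adds the core fucose of N-glycans, fell in RPLP0 mRNA by 0.33 ± 0.12 (FDR 0.0494) and was at -0.31 ± 0.12 in RPLP1, just outside the threshold (FDR 0.0559). Fut11 footprints were called lower in RPLP1, at -0.42 ± 0.14 (FDR 0.0345 in the authors' deposited table). Fut9, the SSEA-1 enzyme, was not called in any line or assay; its mRNA stood at 0.16 ± 0.08 in RPLP1, -0.25 ± 0.13 in RPLP0 and -0.01 ± 0.17 in RACK1.

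The glycosaminoglycan group builds the xylose-galactose-galactose-glucuronate linker on a proteoglycan and then lengthens the chain. After removal of RPLP1 all 13 of its members were below 0 in mRNA and 12 of 13 in footprints, with medians of -0.28 and -0.21. Of the 13, 4 were called lower in mRNA and 2 in footprints, beside 8.59% and 4.85% of all genes. Xylt2, a xylosyltransferase that starts the linker, fell by 0.44 ± 0.10 in mRNA (FDR 0.000686 in the authors' deposited table). The other xylosyltransferase, Xylt1, was at -0.07 ± 0.19. The remaining linker enzymes B4galt7, B3galt6 and B3gat3 were at -0.28 ± 0.15, -0.35 ± 0.16 and -0.15 ± 0.11 in RPLP1 mRNA, none of them called. B3galt6 rose in RPLP0 mRNA by 0.51 ± 0.16 (FDR 0.0172, the authors' value).

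Heparan sulfate chains are started by Extl3 and polymerised by the Ext1 and Ext2 complex. In the authors' deposited RPLP1 table, Extl3 fell by 0.23 ± 0.08 (FDR 0.0408) and Ext2 by 0.43 ± 0.11 (FDR 0.00285) in mRNA, whereas Ext1, at -0.13 ± 0.08 in mRNA, was called in footprints, at -0.27 ± 0.09 (FDR 0.0416). Extl1 was also called in RPLP1 footprints, at -0.80 ± 0.27 (FDR 0.0463), beside -0.61 ± 0.23 in mRNA. Chondroitin chains are polymerised by Chsy1 with its partners Chpf and Chpf2. Chpf had the smallest mRNA FDR of the chain builders, with a fall of 0.66 ± 0.14 (FDR 0.000472 in the authors' deposited RPLP1 table), and its footprints were at -0.19 ± 0.08. Chsy1 itself was at -0.02 ± 0.09 in mRNA and -0.22 ± 0.10 in footprints, neither called. In RPLP0, no heparan or chondroitin polymerase was called by the authors' FDR, and Ext2, Extl3 and Chpf stood at 0.17 ± 0.08, 0.12 ± 0.06 and -0.15 ± 0.09 in mRNA.

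Sulfotransferases act on these chains last. Of the heparan sulfate enzymes, Hs6st1, which sulfates the 6-O position of glucosamine, fell in mRNA after removal of either stalk protein, by 0.33 ± 0.08 for RPLP1 (FDR 0.00231) and 0.23 ± 0.08 for RPLP0 (FDR 0.0338, both from the authors' deposited tables). Its footprints were at -0.22 ± 0.10 in RPLP1 and 0.20 ± 0.13 in RPLP0. All 7 enzymes of this group were below 0 in RPLP1 mRNA, and all 6 listed in RPLP0 were above 0 in footprints, without a call. Among the Chst genes, Chst12, a chondroitin 4-O-sulfotransferase, fell in RPLP1 mRNA by 0.60 ± 0.16 (FDR 0.00466). Chst10, which makes the HNK-1 epitope, and Chst5, which sulfates GlcNAc, were called in RPLP1 footprints, at -0.33 ± 0.12 (FDR 0.0476) and -0.82 ± 0.28 (FDR 0.0465, the authors' values). All 9 Chst genes were below 0 in RPLP1 footprints, with a median of -0.33. In RACK1 this group was the exception in mRNA, with 3 of 11 genes below 0 and a median of 0.30, and none called.

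**Figure D3:**
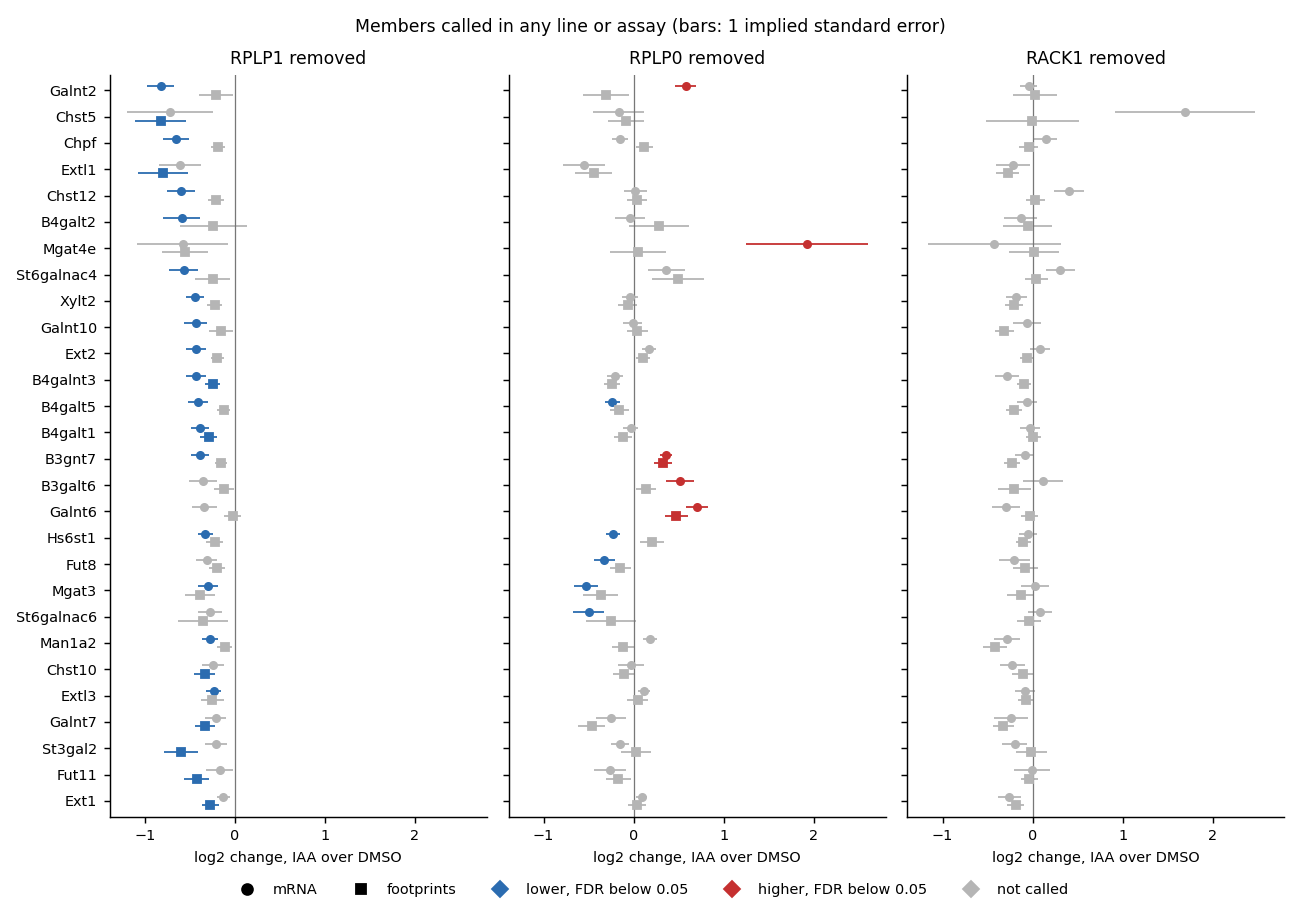
The 28 members called in mRNA or footprints of any line, with the log2 change after IAA over DMSO on the horizontal axis; circles are mRNA, squares footprints, bars 1 implied standard error, and blue, red and grey mark called lower, called higher and not called. Every called point in the RPLP1 panel is blue, and Galnt2 and B3gnt7 are blue there and red in the RPLP0 panel. No share over all genes was computed for the count of 28.

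Promoters of 4 RPLP1-called members are shown because these mRNAs moved together and the sequences show which common elements they hold. These 4 had the smallest mRNA FDR among called members with a single window. Ties were ordered by symbol, and Hs6st1 had the same FDR as B4galnt3. RefSeq promoter windows (build GRCm38.p6) were matched by symbol for 64 of the 84 members and for 9644 genes of the RPLP1 table, and for 12 of the 16 called members. The 250 bases before the annotated start are printed 5′ to 3′ on the strand of the gene, with capitals marking a GC box, an E-box or a cAMP response element. Chpf lies at chr1:75479472-75479721 (minus strand), Xylt2 at chr11:94677494-94677743 (minus), B3gnt7 at chr1:86302971-86303220 (plus) and B4galnt3 at chr6:120294898-120295147 (minus).
Chpf: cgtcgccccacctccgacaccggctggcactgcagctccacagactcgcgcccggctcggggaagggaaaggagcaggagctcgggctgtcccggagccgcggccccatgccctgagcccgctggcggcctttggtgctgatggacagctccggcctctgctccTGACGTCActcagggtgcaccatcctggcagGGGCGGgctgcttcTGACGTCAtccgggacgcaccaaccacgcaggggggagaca
Xylt2: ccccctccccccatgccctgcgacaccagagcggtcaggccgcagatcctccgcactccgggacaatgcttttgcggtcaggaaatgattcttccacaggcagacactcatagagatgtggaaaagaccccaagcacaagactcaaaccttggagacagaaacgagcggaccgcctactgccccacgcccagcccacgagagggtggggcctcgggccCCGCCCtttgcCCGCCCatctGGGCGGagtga
B3gnt7: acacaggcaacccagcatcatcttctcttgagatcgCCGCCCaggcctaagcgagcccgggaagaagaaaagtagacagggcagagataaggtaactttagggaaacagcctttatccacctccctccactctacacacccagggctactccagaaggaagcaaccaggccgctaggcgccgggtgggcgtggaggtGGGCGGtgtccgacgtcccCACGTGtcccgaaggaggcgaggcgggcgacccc
B4galnt3: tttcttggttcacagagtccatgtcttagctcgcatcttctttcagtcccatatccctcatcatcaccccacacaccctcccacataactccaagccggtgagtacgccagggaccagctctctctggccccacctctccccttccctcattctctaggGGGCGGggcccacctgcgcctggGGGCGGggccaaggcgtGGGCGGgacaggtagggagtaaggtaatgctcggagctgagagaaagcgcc
The GC box GGGCGG, searched on both strands like all motifs here, occurred 1 time in the Chpf window, 3 times in Xylt2, 2 times in B3gnt7 and 3 times in B4galnt3. It was present in 49 of 64 members, or 76.6%, against 66.1% of the 9644 genes, and in 10 of the 12 called members. Chpf also held the cAMP response element TGACGTCA 2 times; 4.69% of members and 3.11% of genes held that element. The E-box CACGTG in B3gnt7 was shared by Ext2 among the called members, and by 10.9% of members against 10.2% of genes. The Golgi stress element ACGTGGC was in 2 members, Chsy1 and B3gntl1, or 3.13%, against 3.61% of genes, and in none of the called ones. The ATF6 and XBP1 element TGACGTGG and the ER stress element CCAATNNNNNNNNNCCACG were in no member window, against 0.871% and 0.176% of genes; these overlap the Golgi stress element and the CCAAT box in their letters. The CCAAT box was in 42.2% of members and 41.1% of genes, and in 2 of the 12 called members. A match describes the letters only.

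Genes that work beside the members were taken from 3 lists. Other glycan enzymes of the Golgi that the symbol rule does not catch were also mostly lower in RPLP1: 32 of 38 were below 0 in mRNA, with 10 called lower (8.59% of all genes), none higher, and a median of -0.25, and 5 were called lower in footprints (4.85% of all genes). They included the 3 Fringe enzymes that extend O-fucose on Notch, Lfng at -0.95, Mfng at -0.97 and Rfng at -0.64 in mRNA (FDR 0.0141, 0.0099 and 0.00119 in the authors' deposited table), and Gnptab, which makes the mannose 6-phosphate tag of lysosomal enzymes, at -0.34 (FDR 0.00876). Proteoglycan core proteins, the carriers of these chains, were called lower in 7 of 20 cases in RPLP1 mRNA and 6 of 20 in footprints, beside the same 8.59% and 4.85% of all genes, with medians of -0.31 and -0.19. Among them were perlecan (Hspg2), at -0.37 in mRNA (FDR 0.000489), agrin (Agrn), at -0.37 (FDR 0.000223), and glypican-3 (Gpc3), at -0.41 (FDR 0.000477, all from the authors' deposited RPLP1 table). In RPLP0, 3 of 19 core proteins were called in mRNA, all higher, beside 5.05% of all genes: Sdc4 at 0.87, Gpc4 at 0.50 and Hspg2 at 0.16. In RACK1, 1 of 20 was called in mRNA, Hspg2, at -0.51 (FDR 0.032 in the authors' deposited table), beside 0.48% of all genes called in either direction. Proteins that hold the Golgi and its enzymes in place, such as the COG complex and the golgins, had a median of -0.01 in RPLP1 mRNA over 20 genes, 11 below 0, and 1 call, Golgb1, at -0.22 (FDR 0.0324, the authors' value); their footprint median was 0.00.

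Footprints minus mRNA gives the change in translation efficiency, tested here with an approximate normal test on the implied errors, taken as independent, and adjusted over all genes of a table. No member was called in any line; the backgrounds were 0.0326% of genes in RPLP1, 0.0081% in RPLP0 and 0.101% in RACK1. The median was 0.07 over the members in RPLP1 and 0.00 over all genes. At an unadjusted p below 0.05 the members numbered 5 in RPLP1, or 5.95%, against 7.36% of all genes; 9 in RPLP0, or 10.6%, against 6.57%; and 4 in RACK1, or 4.30%, against 7.84%. Among the members with the smallest unadjusted p of their line were Chpf, at 0.47 ± 0.16 (95% interval 0.15 to 0.79), and Galnt2, at 0.62 ± 0.24 (0.14 to 1.09), in RPLP1, where mRNA fell and footprints were not called, and Galnt2 at -0.89 ± 0.28 (-1.44 to -0.34) in RPLP0, where mRNA rose. All 3 became calls with an assumed error correlation of 0.5 between the assays. How many of all genes became calls under that assumption was not counted. Of the 16 members called in RPLP1 mRNA, all 16 had a footprint change below 0, beside 88.1% of all members there. All 9 called in RPLP1 footprints had an mRNA change below 0, beside 90.5% of all members. In RPLP0, 8 of the 10 members called in mRNA had a footprint change of the same sign. Spearman's rho between mRNA and footprint changes was 0.29 over 84 members in RPLP1 (0.51 over all genes), 0.43 over 85 in RPLP0 (0.47) and 0.14 over 93 in RACK1 (0.12); genes of 1 comparison share their libraries and are not independent.

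The response to RPLP1 removal differed from that to RPLP0 removal for a set of these enzymes. The lines have separate DMSO samples, and differences were tested gene by gene with the same approximate normal test, adjusted over all genes in both tables, for 3 pairs of lines and 2 assays. For RPLP1 minus RPLP0 in mRNA, 16 of 82 members were called, all lower in RPLP1, where 7.27% of genes were called lower. The difference was -1.40 ± 0.19 for Galnt2 (95% interval -1.77 to -1.03), -0.75 ± 0.12 for B3gnt7 (-0.98 to -0.52) and -1.04 ± 0.18 for Galnt6 (-1.40 to -0.68). Xylt2, Chpf, Ext2, Extl3, Chst12, Man1a2 and St6galnac4, all called lower in RPLP1, were also among the 16. Of the 16 members called in RPLP1 mRNA, 7 were above 0 in RPLP0, 2 of them called higher, while 3 were called lower there: Mgat3, B4galt5 and Hs6st1. Over all members in RPLP0 mRNA, 57.6% were below 0, with 5.88% called lower and 5.88% called higher. In footprints 4 of 82 differed, all lower in RPLP1 (background 3.08%): Man1a at -0.70 ± 0.22, Galnt6 at -0.50 ± 0.16, B3gnt7 at -0.48 ± 0.12 and Hs2st1 at -0.41 ± 0.13.

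Fewer members told RPLP1 and RACK1 apart. In mRNA 7 of 83 differed, all lower in RPLP1, where 595 of 12117 genes were called lower and 7.91% were called in either direction. Among the 7 were Galnt2 at -0.78 ± 0.18 (95% interval -1.13 to -0.43) and Chst12 at -1.005 ± 0.23 (-1.46 to -0.55). The median implied standard error over all genes was 0.166 in RACK1 mRNA and 0.105 in RPLP0 mRNA, and larger errors leave fewer calls. In footprints no member differed by that test after adjustment (background 0.107%), and 9 did at an unadjusted p below 0.05, or 10.8%, against 10.4% of all genes. Of the 16 members called in RPLP1 mRNA, 11 were below 0 in RACK1 mRNA, beside 63.4% of all members there. Of the 9 called in RPLP1 footprints, 8 were below 0 in RACK1 footprints, beside 74.2% of all members. In RPLP0 footprints 7 of these 9 were below 0, beside 44.7% of all members. Between RPLP0 and RACK1, 3 of 83 members differed in mRNA, all higher in RPLP0, beside 3.23% of genes called in either direction: Galnt6 by 0.99 ± 0.20, Galnt2 by 0.62 ± 0.15 and B3gnt7 by 0.45 ± 0.12. In footprints B3gnt7 alone differed between RPLP0 and RACK1, by 0.55 ± 0.13, beside 0.632% of genes called in either direction.

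The RACK1 members with the smallest FDR give the size of what was seen there without a call. In the authors' deposited RACK1 table these were St6galnac2 at -0.55 ± 0.22 (FDR 0.278), Xylt1 at -0.59 ± 0.24 (FDR 0.294) and B3galnt2 at -0.33 ± 0.14 (FDR 0.302) in mRNA. In footprints they were Galnt12 at -0.42 ± 0.13 (FDR 0.325), Man1a2 at -0.42 ± 0.13 (FDR 0.33) and Galnt10 at -0.31 ± 0.11 (FDR 0.444). Man1a2 and Galnt10 were called lower in the RPLP1 mRNA. The others were not called there, with B3galnt2 at 0.04, Galnt12 at 0.02, Xylt1 at -0.07 and St6galnac2 at -0.29. The 6 RACK1 values are all below 0, beside 63.4% of all members in RACK1 mRNA and 74.2% in footprints.

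**Figure D4:**
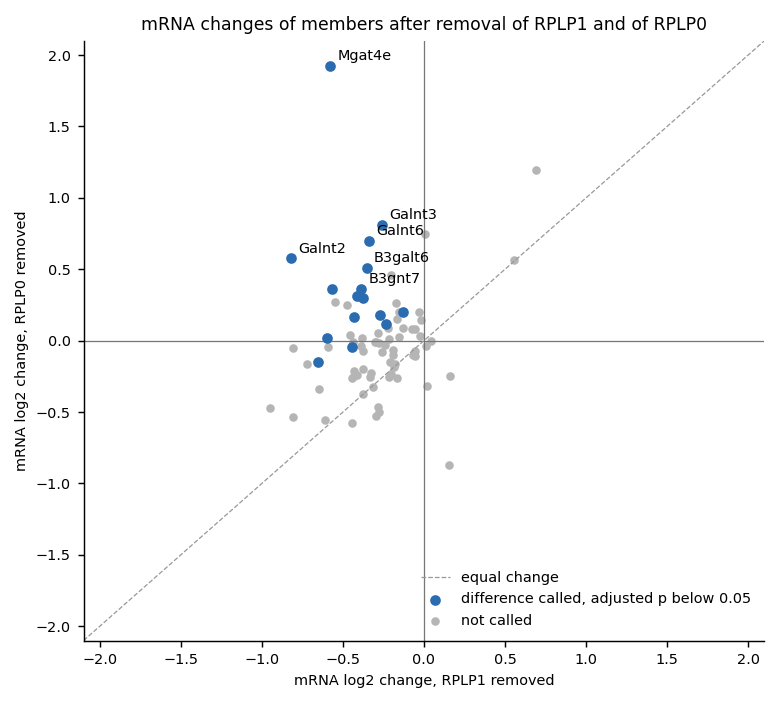
mRNA log2 change of the 82 members in both tables after removal of RPLP1 (horizontal axis) and of RPLP0 (vertical axis); blue points are the 16 whose difference was called at an adjusted p below 0.05, and the dashed line marks equal change. All blue points lie above the dashed line, that is, lower in RPLP1, with Galnt2 at -0.82 for RPLP1 and 0.58 for RPLP0.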

How the data were processed

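The files analysed were 3 tables of comparisons. For mRNA and footprints of every gene, the authors gave a log2 fold change and an FDR, a p-value adjusted for multiple testing, per the file headers. A class code deposited beside them separates no change, change in either assay and change in both; the RPLP0 table has no legend for it. Aligner, counting, strand setting, annotation, test, low-count filter and genome build were not given in the sources used here, and no depth or value per sample was used.

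Members and gene lists were chosen with earlier results of these data known. Symbols listed more than once were dropped. The authors' FDR was turned back into a p by undoing the Benjamini-Hochberg step, and the implied standard error is the change divided by the matching normal quantile. Differences between assays and between lines were tested against combined implied errors (normal approximation, Benjamini-Hochberg over all genes), with scripts checked on simulated tables; with few samples behind each value these tests are approximate. All p-values may measure technical spread. Named are members called in any line or assay, members called in a difference, and for a line with fewer than 3 calls in an assay the 3 members with the smallest FDR; Fut9, members of role groups told out in full and genes of the side lists were chosen with values in view. Alternatives were other thresholds, the class code, centring, precision, members in all 3 tables, duplicated symbols and an error correlation of 0.5. Python 3.11.15, pandas 2.3.3 and scipy 1.17.1 were used.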

Additional observations from a re-analysis of the deposited data

Results flagged for a closer look

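The members below changed differently in 2 lines by the approximate normal test of the difference itself, on the log2 scale and at an adjusted p below 0.05. For RPLP1 minus RPLP0 in mRNA these were Mgat4e at -2.51, Galnt2 at -1.40, Galnt3 at -1.07, Galnt6 at -1.04, St6galnac4 at -0.93, B3galt6 at -0.86, B3gnt7 at -0.75, Ndst2 at -0.73, Chpf2 at -0.67, Chst12 at -0.62, Ext2 at -0.60, Chpf at -0.50, Man1a2 at -0.45, Xylt2 at -0.40, Extl3 at -0.35 and Mgat2 at -0.33. Mgat4e rested on wide errors, with a 95% interval from -4.16 to -0.85. For RPLP1 minus RPLP0 in footprints they were Man1a at -0.70, Galnt6 at -0.50, B3gnt7 at -0.48 and Hs2st1 at -0.41. For RPLP1 minus RACK1 in mRNA they were Chst14 at -1.65, Chst12 at -1.005, St6galnac4 at -0.88, Chpf at -0.80, Galnt2 at -0.78, Ext2 at -0.51 and Mgat4b at -0.48. For RPLP0 minus RACK1 they were B3gnt7 at 0.45, Galnt2 at 0.62 and Galnt6 at 0.99 in mRNA, and B3gnt7 at 0.55 in footprints. Galnt2, Galnt6 and B3gnt7 appear in more than 1 pair of lines; the pairs share the samples of a line and are not independent of each other.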

How the results depend on the processing

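The stricter FDR and the minimum change leave each log2 change as it was, so no called change could reverse its direction there. Centring took off medians between -0.0145 and 0.0014, small beside every called change, so it could not reverse one either. Members that were not called were not followed one by one, and those near 0 can change sign with centring. Of the counts and medians, 70 values stayed within the limits set, 12 counts grew and 11 shrank, and of the single calls 78 were kept and 33 lost: 22 at an FDR below 0.01, 8 with a minimum change of 0.3, and 3 after centring, namely Mgat3 mRNA and B4galnt3 and Chst10 footprints in RPLP1. An FDR below 0.1 gave 14 members in RPLP1 footprints and 5 in RPLP0 footprints; below 0.01 there were 0 in each, and 4 in RPLP0 mRNA. The authors' class code gave 42 members in RPLP1 mRNA, 14 in RPLP1 footprints, 20 in RPLP0 mRNA, 5 in RPLP0 footprints and 2, Galnt12 and Man1a2, in RACK1 footprints. The RPLP0 codes, which have no legend, were read as in RACK1 and RPLP1. For these FDR thresholds and for the class code no share over all genes was computed, so the counts are not set against other genes. Among the more precisely measured genes alone, 10 members were called in RPLP1 mRNA, 1 in RPLP1 footprints, 3 in RPLP0 mRNA and 1 in RPLP0 footprints. These are the same calls counted within those genes only, without a new test. With an error correlation of 0.5, footprints minus mRNA gave calls for Chpf and Galnt2 in RPLP1, so 2 members, for Galnt2, Hs6st1 and Man2a2 in RPLP0, so 3, and for Mgat2 in RACK1, so 1. The share over all genes was not computed for this setting either. Differences at an adjusted p below 0.1, again without a share over all genes, numbered 8 in footprints for RPLP1 minus RPLP0 and 3 for RPLP0 minus RACK1. Among genes measured more precisely in both tables they numbered 6 in mRNA and 2 in footprints for RPLP1 minus RPLP0, 2 in mRNA for RPLP1 minus RACK1 and 1 in mRNA for RPLP0 minus RACK1. No paired analysis was possible because the tables hold no values per sample, and for the same reason no replicate could be left out. The alternative on N-terminal hydrophobic segments was not run, as no protein table was used here. Without counts, the depth behind a value is unknown, and the members' larger errors limit what could be called.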
